A study of Mus musculus with 16 samples.

Results

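Vegfa and 9 other genes of the hypoxia response were followed in bone marrow-derived macrophages (BMDMs) of wildtype (WT) and Cpeb4 knockout (KO) mice. The genes were taken by their symbols: Vegfa, Hif1a, Egln1, Egln3, Bnip3, Bnip3l, Adm, Pdk1, Ldha and Hk2. All 10 were found among the 14925 genes of the deposited 3′-UTR tables, in 19 of 30622 annotated 3′-UTRs, and the 3′-UTR with the most reads stood for each gene. Reads were counted in total RNA (Input) and in RNA co-immunoprecipitated with an anti-CPEB4 antibody after formaldehyde crosslinking (RIP).

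CPEB4 is an RNA-binding protein that recognizes cytoplasmic polyadenylation elements (CPEs) in 3′-UTRs. The WT cells came from culture 76 and the KO cells, from full Cpeb4-/- mice, from culture 73; the strain label is C57BL/6J 129 for both. Marrow of adult mice had been differentiated in medium with L-cell supernatant, a source of M-CSF. Cells of each genotype were left untreated or received lipopolysaccharide (LPS) at 10 ng/ml for 9 h, which gives 8 libraries, each sequenced on lanes 7 and 8 and summed in the deposited counts. The 16 deposited samples are thus 8 libraries, and every group is 1 library. No difference has a replicate check: the intervals are 95% intervals for counting error, and the tests compare libraries and not conditions.

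The hypoxia response is built around the transcription factor HIF, whose alpha subunits are hydroxylated by prolyl hydroxylases (the Egln enzymes) when oxygen is present and are then destroyed. Without hydroxylation, HIF drives genes for new vessels, glucose uptake, glycolysis and the removal of mitochondria. In macrophages LPS is also known to induce Hif1a at normal oxygen and to shift metabolism toward glycolysis.

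Between 467696 and 2492300 reads per library fell in 3′-UTRs of named genes, and levels are given in CPM, that is reads per 1000000 of those reads. Of all reads that the deposited RPKM values imply for a library, these were 27.3% and 31.8% in the KO RIPs from untreated and LPS-treated cells and 46.4% to 70.1% in the other 6 libraries. The Cpeb4 3′-UTR itself had 130.2 CPM in WT Input and 52.0 in KO Input of untreated cells, 136 and 52.6 after LPS, 836 and 257 in the untreated RIPs and 770.4 and 367 in the LPS RIPs. Whether this 3′-UTR lies in the deleted part of the gene is not given in the sources used here, so the reads that remain in the KO libraries do not check the genotype. In both genotypes and at both treatments the Cpeb4 level was higher in RIP than in Input. The source of these reads in the KO RIPs was not tested. In bulk cultures fewer cells of a type and less RNA per cell cannot be told apart. All 8 macrophage markers had over 3 reads in each of the 4 Inputs, with a sum of 2539 to 3557 CPM. Markers of T cells, B cells, neutrophils, erythroid cells, fibroblasts and conventional dendritic cells had at most 2 reads in all per list and Input. Of the 4 neutrophil markers only 1 could be counted, and of the 3 markers of each of the other types only 2. The endothelial markers Pecam1 and Cdh5 had 0 reads in both untreated Inputs and summed to 7.38 and 16.6 CPM in the WT and KO Inputs after LPS, and their part in the results was not tested.

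CPEB4 is known to read CPEs, so the 3′-UTRs were searched for them and for other 3′-UTR motifs. The motifs TTTTAT and TTTTAAT (CPE), TTTTGT (a variant CPE), AATAAA and ATTAAA (the polyadenylation hexamer), ATTTA (the core of AU-rich elements) and TGTANATA (the Pumilio site) were searched on the transcribed strand of each 3′-UTR in GRCm38 (mm10), with overlapping matches counted. Vegfa (chr17:46016993-46018857, minus strand, 1865 bases) and Hif1a (chr12:73945704-73947530, plus strand, 1827 bases) have 6 CPEs each, where 3′-UTRs of like length (within 20%) of expressed genes have a median of 2 and 81.2% and 80.6% have at least 1. Hk2 (chr6:82725025-82727309, minus strand, 2285 bases) has 2, the median for its length. Ldha (chr7:46855142-46855627, plus strand, 486 bases) has 1, where 37.1% of like 3′-UTRs have any. Bnip3l (chr14:66985239-66987775) and Adm (chr7:110629169-110629819) have 0, where 89.1% and 45.6% have any. They hold 6 and 2 copies of the variant CPE, where like 3′-UTRs have medians of 2 and 0. Further CPE motifs that the study counted were not searched. Egln1 has 2, Egln3 2, Pdk1 3 and Bnip3 1. The following windows of 30 bases, read from RefSeq's copy of that build, are shown because they hold the closest CPE pair or the last CPE, and the last hexamer, of the 3 genes that are called higher in WT RIP than in WT Input below and of Ldha and Bnip3l; capitals mark CPEs, the variant CPE and hexamers.
Vegfa CPE pair (chr17:46017189-46017218, minus strand): tctctccttTTTTAATTTTAATatttgtta
Vegfa last hexamer (chr17:46017002-46017031, minus strand): aaagcaTTTTGTATTAAAgaattgaattct
Hif1a CPE pair (chr12:73945914-73945943, plus strand): gctctTTTTAATatgttcTTTTAATgccag
Hif1a last hexamer (chr12:73947492-73947521, plus strand): tagaaacttccaAATAAAcaccacaaacct
Hk2 last CPE (chr6:82725913-82725942, minus strand): gccgactagcctTTTTATacgagttattta
Hk2 last hexamer (chr6:82725035-82725064, minus strand): ttaactattattAATAAAttttaacttttt
Ldha last CPE (chr7:46855497-46855526, plus strand): ttgtacaggataTTTTATatattatatgtg
Ldha last hexamer (chr7:46855596-46855625, plus strand): agtgtcatgccaAATAAAaccttgaacagt
Bnip3l last hexamer (chr14:66985242-66985271, minus strand): acaTTTTGTgccATTAAAgctctcacaaaa

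In Vegfa the paired CPEs overlap by 1 base and start 217 and 211 bases before the annotated end, and a variant CPE abuts the last hexamer. In Hif1a the pair starts 1612 and 1599 bases before the end, and the last CPE lies 522 bases before it. The CPE of Ldha starts 119 bases before the end, the nearest of the members with one. Vegfa also holds 9 copies of ATTTA, Hif1a 8 and Hk2 7, where like 3′-UTRs have a median of 3, and Ldha holds 0. TGTANATA matches Vegfa at 2 positions and Hif1a at 0. The deposited CPE predictions, made from motifs in the 3′-UTR, put Vegfa and Hif1a under repression and Ldha under activation. The other 7 have no prediction, and of 5832 genes with over 10 reads in untreated WT Input 41.0% have one. A match is a description of the letters and not of binding.

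**Figure D1:**
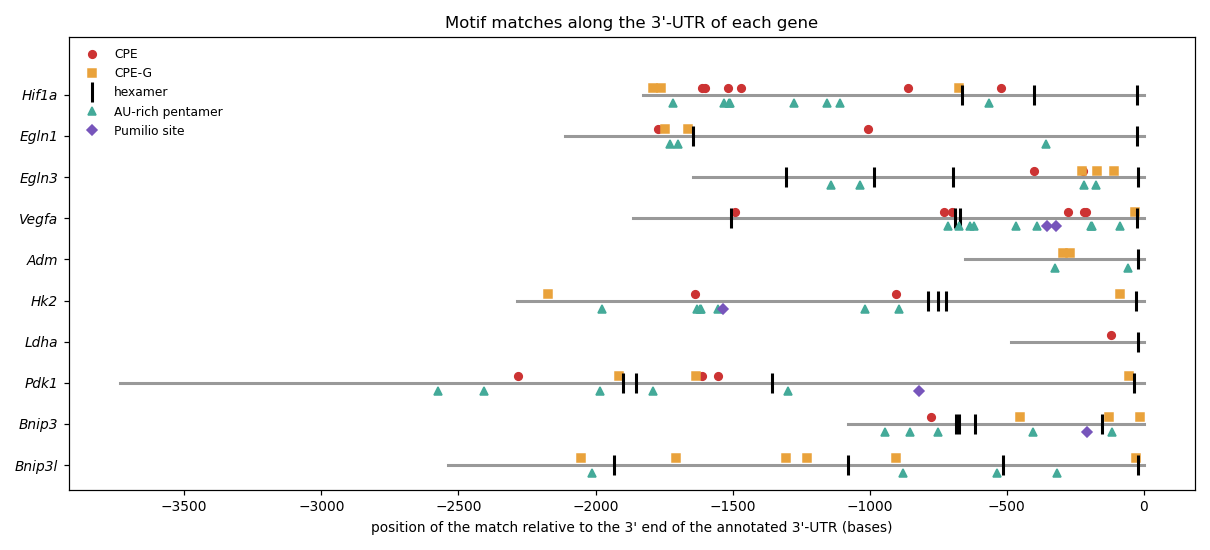
Matches of the CPE, its variant (CPE-G), the polyadenylation hexamer, the AU-rich pentamer and the Pumilio site along the 3′-UTR of each gene, with the position relative to the annotated 3′ end on the x axis (bases). Vegfa and Hif1a hold 6 CPEs each, and the single CPE of Ldha lies 119 bases before its end. Bnip3l and Adm hold no CPE but 6 and 2 copies of the variant.

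**Figure D2:**
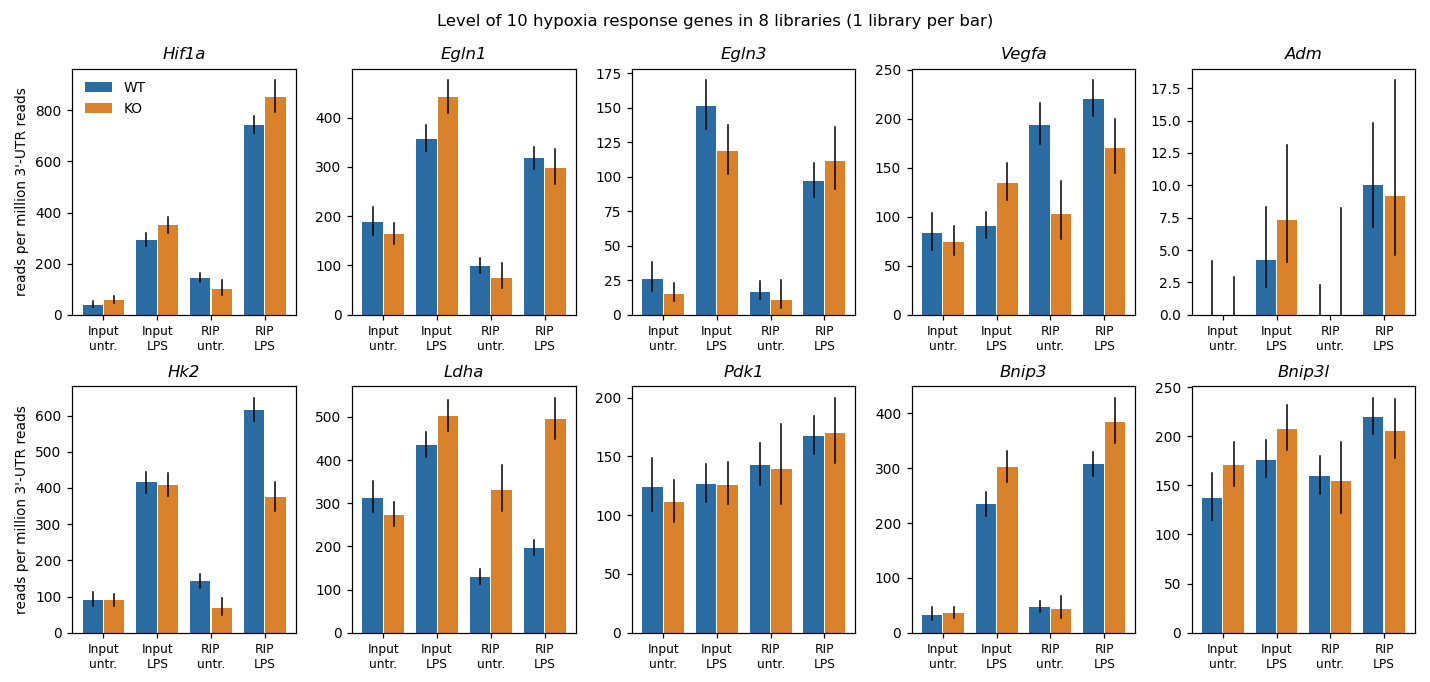
Level of each gene in the 8 libraries, in CPM, with Input and RIP on the x axis and WT in blue beside KO in orange; lines are 95% Wilson intervals for counting error and each bar is 1 library. Hif1a, Egln1, Egln3, Hk2 and Bnip3 are higher after LPS in both genotypes and both kinds of library, while Ldha stands higher in the KO RIPs than in the WT RIPs.

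The first question was how LPS changed the genes in total RNA. In WT Input, 5 of the 9 genes tested were called higher after LPS (Hif1a, Egln1, Egln3, Bnip3 and Hk2) and 0 lower, where 13.7% of 8163 genes were called higher and 16.5% lower. In KO Input, the same 5 were called higher together with Vegfa, Ldha and Adm, and 0 lower, where 14.4% of 8250 genes were called higher and 20.0% lower. Adm passed the minimum of 10 reads there, and in WT RIP below, through its LPS library alone. A gene was called where the chi-square test of its reads in both libraries gave a Benjamini-Yekutieli adjusted p under 0.02 with a log2 ratio past 0.5, or a raw p under 0.02 with a log2 ratio past 1.2. Over the 9 genes other than Adm, the median log2 ratio was 0.92 in WT and 1.43 in KO, against -0.08 and -0.18 over all genes tested.

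The alpha subunit and both prolyl hydroxylases were called higher in each genotype. Hif1a, the oxygen-regulated alpha subunit of HIF-1, had 39.8 CPM in untreated and 294 in LPS-treated WT Input, and 58.8 and 349 in KO Input. Its log2 ratio was 2.85 (95% interval 2.37 to 3.32) in WT and 2.55 (2.21 to 2.90) in KO, so that it rose in each genotype. Egln3, a prolyl hydroxylase that HIF itself induces, went from 25.8 to 151 CPM in WT and from 15.1 to 118 in KO. These are log2 ratios of 2.50 (1.91 to 3.09) and 2.91 (2.26 to 3.56). Egln1, the main prolyl hydroxylase that marks HIF alpha subunits in normal oxygen, rose from 188 to 357 CPM in WT and from 163 to 441 in KO. Its log2 ratio was smaller, at 0.92 (0.68 to 1.16) in WT and 1.43 (1.21 to 1.65) in KO, and the calls were lost with an assumed biological coefficient of variation of 0.4, the WT call also with 0.2.

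Of the secreted ligands, Vegfa was tested in WT Input and not called, and Adm had too few reads there for a test. Vegfa, the growth factor for vessels, had 82.9 CPM in untreated and 90.7 in LPS-treated WT Input, from 77 and 172 reads. In KO Input it had 74.7 and 134, from 99 and 202 reads. The log2 ratio was 0.12 (-0.27 to 0.50) in WT, which did not pass, and 0.84 (0.50 to 1.19; adjusted p 6.90e-05 by the chi-square test) in KO, which did. The difference between these LPS changes was -0.72 (-1.24 to -0.20), with an adjusted p of 0.125 over the 5468 genes tested for it, so it did not pass the threshold of 0.05. The call in KO Input was lost with an exact test that assumes a biological coefficient of variation of 0.2 or 0.4, as was that of Ldha. Adm, which encodes the vasodilator peptide adrenomedullin, had 0 reads in all 4 untreated libraries. After LPS it had 8 reads in WT Input and 11 in KO Input, 25 in WT RIP and 8 in KO RIP. With 3 reads as the most that a count of 0 allows in each library, these levels are 1.31-fold, 3.24-fold, 5.57-fold and 1.43-fold that floor. These folds leave out the counting error of the LPS reads. In WT Input the LPS interval (2.14 to 8.32 CPM) includes the floor of 3.23 CPM. In KO RIP it does too (4.65 to 18.1 CPM, floor 6.41), and neither pair had enough reads for a test.

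Among the glycolytic members, Hk2 had the largest LPS ratio in both Inputs. Hk2, the inducible hexokinase that commits glucose to the pathway, rose from 91.5 to 415 CPM in WT Input and from 89.0 to 407 in KO Input, with log2 ratios of 2.17 (1.85 to 2.49) and 2.18 (1.90 to 2.47). Ldha, which turns pyruvate into lactate, had 313 and 435 CPM in WT and 274 and 503 in KO. Its log2 ratio was 0.47 (0.28 to 0.66) in WT, below the size needed for a call, and 0.87 (0.69 to 1.05) in KO, which was called. In WT it passed with each of the other 3 scalings (0.54 to 0.61). Pdk1, the kinase that keeps pyruvate out of mitochondria by blocking pyruvate dehydrogenase, lay between 111 and 126 CPM in all 4 Inputs and was called in neither genotype.

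Of the pair of mitophagy receptors, Bnip3 was called and Bnip3l was not. Bnip3 had 32.3 and 235 CPM in WT Input and 35.4 and 302 in KO Input, with log2 ratios of 2.82 (2.29 to 3.34) and 3.06 (2.63 to 3.49). An antisense gene, Gm45507, shares 342 bases (31.7%) of the Bnip3 3′-UTR, and the library kit does not mark strand, so reads of both cannot be told apart there. Bnip3l had 137 and 176 CPM in WT and 170.4 and 208 in KO, with log2 ratios of 0.36 (0.06 to 0.65) and 0.28 (0.04 to 0.53). Of its 2438 possible 100-base stretches, 316 (12.96%) are also found in the annotated pseudogene Bnip3l-ps.

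No member was called in the LPS change of WT minus KO Input, where 2.54% of genes were called in either direction. Nor was any called in WT over KO Input, where the calls in either direction were 2.31% of 7845 genes in untreated cells and 2.92% of 8151 after LPS. After LPS Egln1 had the smallest adjusted p of the members (0.0498 by the chi-square test), above the threshold, with a log2 ratio of -0.30. Vegfa had a log2 ratio of -0.57 (-0.86 to -0.27), that is 0.675 times the KO level, and an adjusted p of 0.0527 by the chi-square test. It was called with median-of-ratios scaling (-0.64), with library totals (-0.62) and with the Benjamini-Hochberg adjustment.

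**Figure D3:**
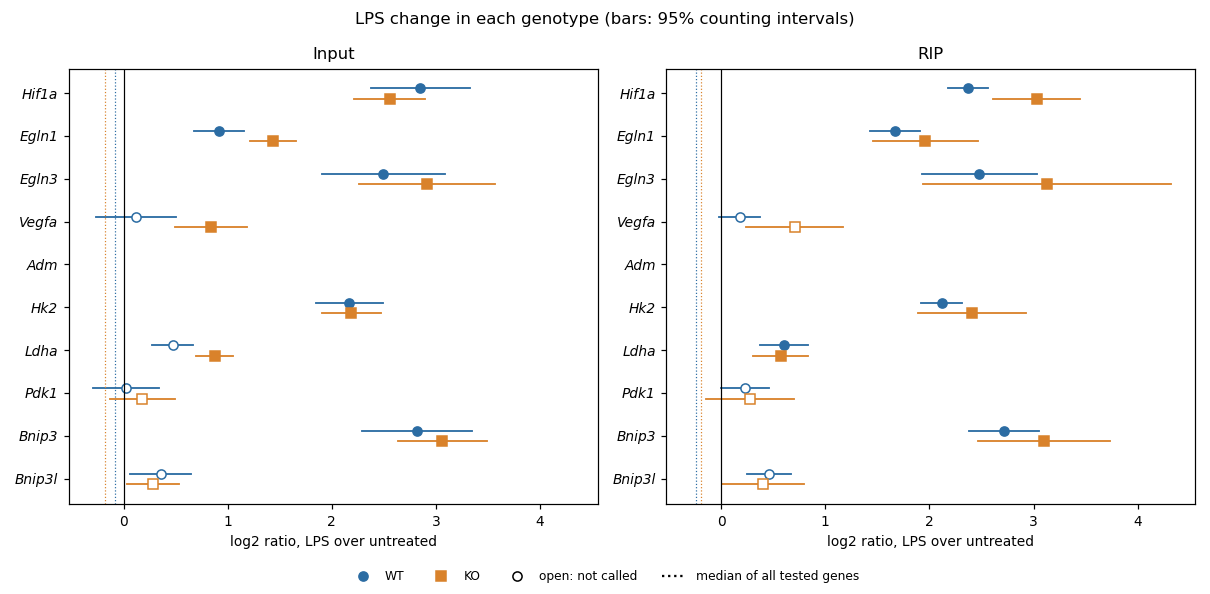
Log2 ratio of LPS over untreated for each gene in Input (left) and RIP (right), with WT as blue circles and KO as orange squares, 95% counting intervals as lines, filled symbols for called ratios and dotted lines at the median of all tested genes. Hif1a, Egln3, Hk2 and Bnip3 lie above 2 in all 4 comparisons; Vegfa, Pdk1 and Bnip3l lie below 1; Adm is not drawn because it had 0 reads in untreated libraries.

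Per kilobase of 3′-UTR, Ldha had the highest level of the 10 in WT Input, at 644 CPM per kilobase untreated and 895 after LPS. The order below it changed with LPS. In untreated WT Input it ran Egln1 (89.2), Bnip3l (53.9), Vegfa (44.4), Hk2 (40.0), Pdk1 (33.1), Bnip3 (29.9), Hif1a (21.8), Egln3 (15.7) and Adm (0), and from Bnip3l to Egln3 each gene's interval overlapped that of the next. After LPS it ran Bnip3 (217), Hk2 (182), Egln1 (169), Hif1a (161), Egln3 (92.1), Bnip3l (69.4), Vegfa (48.6), Pdk1 (33.9) and Adm (6.48), where the intervals of Hk2, Egln1 and Hif1a overlapped each other and no other neighbours' did.

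LPS was compared with no treatment in the RIP libraries too. In WT RIP, 7 of 10 members were called higher (Hif1a, Egln1, Egln3, Bnip3, Adm, Ldha and Hk2) and 0 lower, where 13.8% of 8901 genes were called higher and 22.0% lower. In KO RIP, 6 of the 9 tested were called higher, those 7 without Adm, and 0 lower, where 12.2% of 7227 genes were called higher and 16.8% lower. Without Adm the median log2 ratio was 1.67 in WT and 1.96 in KO RIP, against -0.24 and -0.20 over all genes. The split of calls over all genes in WT RIP turned from 1230 higher and 1955 lower to 1979 and 1211 with TMM and to 2369 and 949 with library totals, and all 10 members were then called higher. In KO RIP it turned from 880 and 1214 to 1209 and 860 with TMM and to 1144 and 910 with library totals. These values hold both the change of the RNA and that of its recovery.

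The second question was whether CPEB4 RIP recovered these RNAs above their Input level. In WT cells, 3 members were called higher in RIP than in Input, Hif1a, Vegfa and Hk2, both untreated and after LPS. The calls higher were 23.5% of 8359 genes in untreated and 25.1% of 8767 in LPS-treated WT cells, so 3 of the 9 and 3 of the 10 members tested are a share near the background. The members called lower were Ldha and Egln1 in untreated cells, where 21.3% of genes were called lower, and Ldha and Egln3 after LPS, where 28.0% were. In KO cells, which the study used as controls, 0 members were called higher in untreated RIP (14.0% of 7708 genes) and Egln1 was called lower (8.99% of genes). After LPS, Hif1a was called higher (15.6% of 7861 genes) and Egln1 lower (11.8%). These splits turn with library totals, which give 318 genes higher and 2658 lower in untreated KO cells, in place of 1079 and 693, and 397 and 2775 in LPS-treated KO cells, in place of 1229 and 929. In LPS-treated WT cells the share of calls that were higher went from 47.3% to 60.5% with TMM and 68.6% with library totals.

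Vegfa had 194 CPM in untreated and 219.9 in LPS-treated WT RIP, and 103 and 169.8 in the KO RIPs. The WT RIPs held 323 and 548 of its reads and the KO RIPs 48 and 148. Its RIP over Input log2 ratio was 1.21 (0.86 to 1.57) in untreated WT cells and 1.27 (1.03 to 1.52) after LPS, against 0.47 (-0.02 to 0.97) and 0.34 (0.03 to 0.64) in KO cells. The WT ratios were thus 2.32-fold and 2.42-fold, and the KO ratios did not pass.

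Hif1a had 143 and 744 CPM in the WT RIPs and 103 and 854 in the KO RIPs, untreated and after LPS. RIP over Input was 1.82 (1.32 to 2.31) and 1.338 (1.201 to 1.47) in WT and 0.81 (0.30 to 1.33) and 1.29 (1.13 to 1.45) in KO on the log2 scale. After LPS its recovery in KO cells was therefore called as it was in WT cells. Hk2 had 142 and 616 CPM in the WT RIPs and 68.4 and 374 in the KO RIPs. Its log2 ratio of RIP over Input was 0.62 (0.26 to 0.98) and 0.57 (0.45 to 0.69) in WT and -0.35 (-0.90 to 0.21) and -0.12 (-0.31 to 0.07) in KO.

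Ldha was called lower in RIP than in Input in WT cells and was not called in KO cells. It had 128 and 196 CPM in the WT RIPs and 331 and 495 in the KO RIPs. RIP over Input was -1.28 (-1.54 to -1.03) and -1.15 (-1.31 to -0.99) in WT, and 0.28 (0.01 to 0.55) and -0.02 (-0.19 to 0.15) in KO. With library totals these were -1.22 and -0.64 in WT and -0.49 and -0.71 in KO, and the KO value after LPS was called lower too. None of its 387 possible 100-base stretches is found in the annotated pseudogenes Ldha-ps and Ldha-ps2. Pdk1, Bnip3 and Bnip3l were called in none of the 4 ratios of RIP over Input with the 3′-UTR sums. With library totals each was called higher in LPS-treated WT cells (0.92, 0.90 and 0.83). Bnip3l was then also called lower in KO cells, at -0.90 untreated and -0.70 after LPS, as was Hk2, at -1.11 and -0.80. Egln3 was then called lower in LPS-treated KO cells (-0.77), and its call in LPS-treated WT cells was lost (-0.13). With an exact test that assumes a biological coefficient of variation of 0.4, none of the RIP over Input calls of the 10 genes remained. With 0.2, Vegfa, Hif1a and Ldha remained in untreated and Vegfa and Hif1a in LPS-treated WT cells, and Hif1a in LPS-treated KO cells.

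**Figure D4:**
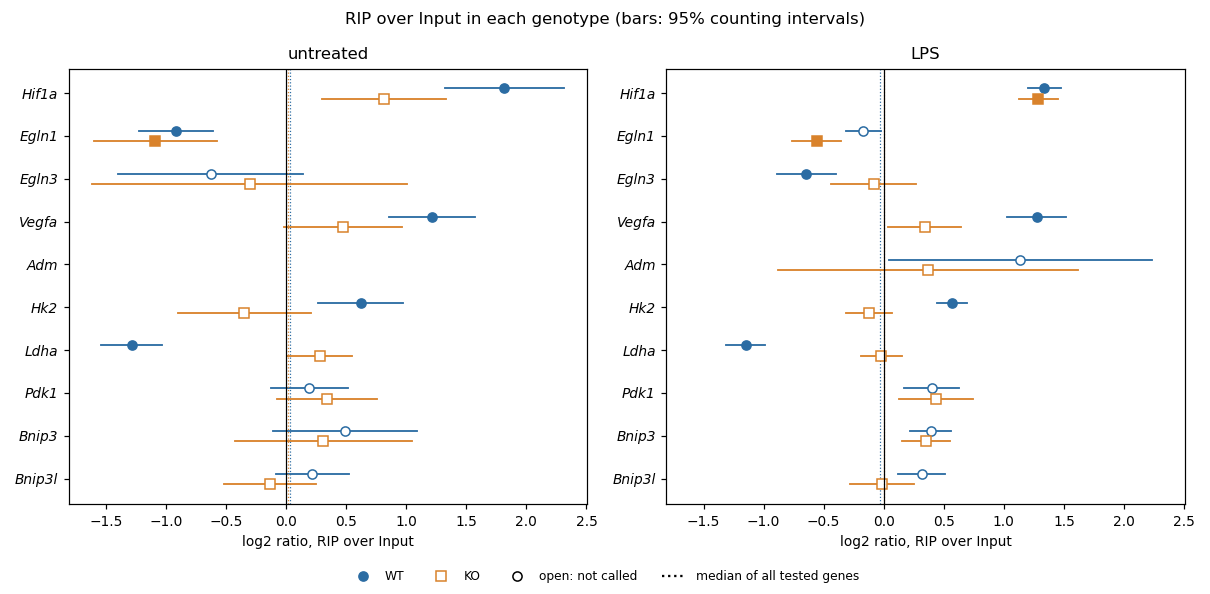
Log2 ratio of RIP over Input in untreated (left) and LPS-treated cells (right), with WT as blue circles and KO as orange squares, 95% counting intervals as lines and filled symbols for called ratios. With the 3′-UTR sums used here, Vegfa and Hk2 are called in WT and not in KO at both treatments. Hif1a is called in KO as well after LPS, and Ldha lies below -1 in WT and near 0 in KO. With library totals Hk2 is called lower in KO at both treatments, and Ldha after LPS lies at -0.64 in WT and -0.71 in KO.

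A peak score is the highest score that the peak caller gave a RIP peak over its Input in the 3′-UTR. In untreated WT RIP 3 of the 10 genes had a peak, Hif1a at 218, Hk2 at 57.3 and Vegfa at 52.9. After LPS 6 had one: Hif1a at 1261, Vegfa at 417, Hk2 at 309.65, Bnip3l at 213, Pdk1 at 190.44 and Egln1 at 83.4. None had a peak in either KO RIP. Of all genes tested, 12.1% and 26.2% had a peak in the WT RIPs and 1.91% and 2.19% in the KO RIPs. The KO RIPs had 467696 and 871482 reads and the WT RIPs 1665914 and 2492300, and the part of depth in the peaks was not tested.

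The third question was how WT RIP compared with KO RIP, the control that the study used. In untreated cells Vegfa and Hk2 were called higher in WT RIP and Ldha lower, where 6.81% of 8064 genes were called higher and 9.34% lower. After LPS only Hk2 was called higher and Ldha lower, where 11.1% of 8310 genes were called higher and 14.9% lower. With an assumed biological coefficient of variation of 0.4 none of these calls remained, and with 0.2 Ldha remained at both treatments. Here a peak score over 500 with a log2 ratio past 0.5 also made a call. Vegfa had a log2 ratio of 0.89 (0.46 to 1.33) in untreated cells and 0.37 (0.10 to 0.63) after LPS. The LPS ratio was not called with the 3′-UTR sums, but it was called higher with TMM, median-of-ratios scaling and library totals. The change of the Vegfa ratio with LPS was -0.53 (-1.03 to -0.02), with an adjusted p of 0.351 over 4460 genes. Hk2 had 1.01 (0.49 to 1.54) and 0.72 (0.54 to 0.89), and Ldha -1.37 (-1.67 to -1.07) and -1.34 (-1.52 to -1.15). Hif1a had 0.46 (0.02 to 0.90) untreated and -0.20 (-0.32 to -0.08) after LPS, and neither was called. No member was called in the change of WT over KO RIP with LPS, where 2.87% of genes were called in either direction.

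These ratios are relative to all 3′-UTR reads. The KO RIPs had fewer 3′-UTR reads per library read than the WT RIPs, so scaling to library totals adds 0.84 in untreated and 1.14 after LPS to every log2 ratio of WT over KO RIP. TMM scaling adds 0.23 and 0.34. With library totals, Vegfa (1.73 and 1.51), Hk2 (1.85 and 1.86) and Hif1a (1.301 and 0.94) were called higher at both treatments, as were Egln1 (1.22 and 1.23), Bnip3l (0.88 and 1.23) and Pdk1 (0.86 and 1.11), and Ldha (-0.53 and -0.20) was called at neither. Under that scaling 2711 of 8064 genes were called higher in untreated cells and 51 lower, and 4411 of 8310 higher and 81 lower after LPS. The ratio after LPS turned to higher for Hif1a, Egln3 (0.93), Bnip3 (0.82) and Pdk1 with library totals. The order of the genes in this comparison does not depend on the scaling, since a scaling shifts all of them alike.

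**Figure D5:**
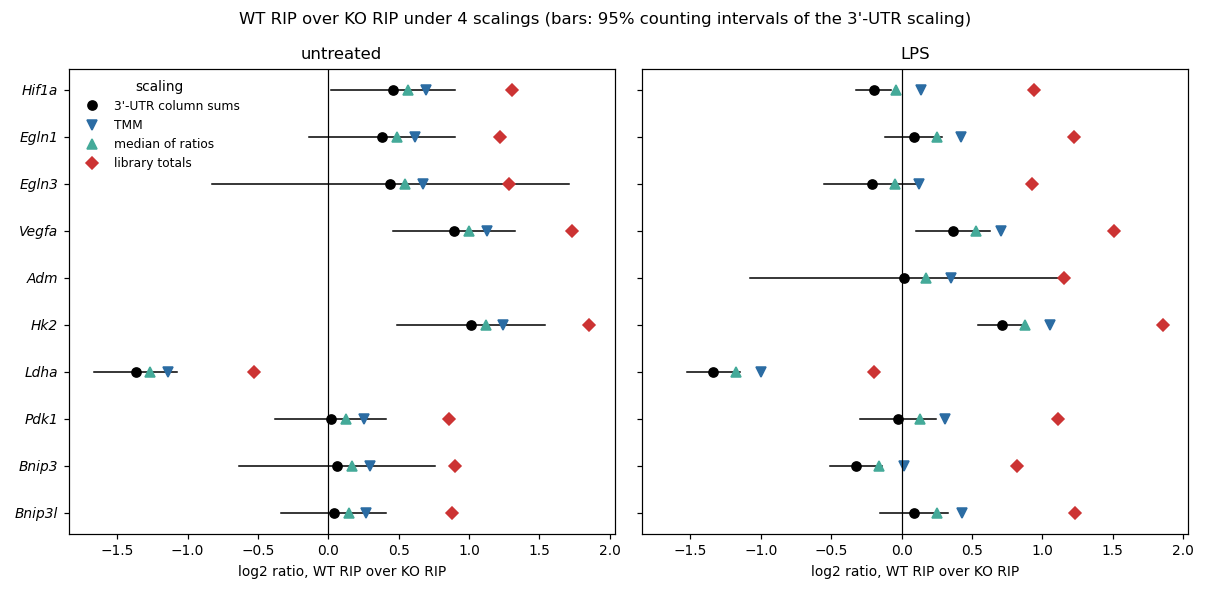
Log2 ratio of WT RIP over KO RIP in untreated (left) and LPS-treated cells (right) under 4 scalings; black circles with 95% counting intervals use the 3′-UTR column sums, and the other symbols TMM, median of ratios and library totals. Library totals move every gene by 0.84 or 1.14, and with the column sums Hk2 and Vegfa lie highest and Ldha lowest in both panels.

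Dividing each RIP by its own Input takes the level of the RNA out of this comparison. The input-corrected WT over KO log2 ratio of Vegfa was 0.74 (0.13 to 1.35; adjusted p 0.0549 by the normal test) in untreated cells and 0.93 (0.54 to 1.33; adjusted p 2.97e-05) after LPS. With the 3′-UTR sums it passed after LPS, where the uncorrected ratio with those sums did not, and its KO Input level there was above that of WT. The untreated Vegfa value passed with TMM, median-of-ratios scaling and library totals (1.57). Hk2 passed at both treatments, with 0.97 (0.31 to 1.63) and 0.69 (0.46 to 0.92). Ldha passed in the other direction, with -1.57 (-1.94 to -1.19) and -1.13 (-1.36 to -0.89), of which the LPS value went to 0.07 with library totals. Hif1a passed in untreated cells with 1.002 (0.29 to 1.71) and had 0.05 (-0.16 to 0.26) after LPS. After LPS Egln1 passed with 0.39 (0.14 to 0.64) and Egln3 with -0.56 (-0.99 to -0.13), which turned to 0.64 with library totals. In untreated cells this makes 2 of 8 members higher and 1 lower, where 14.5% of 4471 genes were higher and 16.3% lower. After LPS it makes 3 of 9 higher and 2 lower, where 16.6% of 5478 genes were higher and 21.8% lower.

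The 315 bases of the Vegfa 3′-UTR next to the stop codon, 16.9% of its length, are listed on their own. They held 13.6% (Wilson interval 10.3 to 17.8) of the Vegfa reads in untreated WT RIP and 29.2% (18.2 to 43.2, 14 of 48 reads) in untreated KO RIP. After LPS the shares were 17.0% (14.1 to 20.3) and 22.97% (16.9 to 30.4). In the Inputs they were 15.6% and 18.0% in WT and 9.09% and 11.4% in KO, so the KO RIPs stand above the KO Inputs by intervals that do not overlap. The first 27 of those bases, listed separately too, held 2.48% and 4.20% of the reads in the WT RIPs, 14.6% (7 of 48) and 11.5% (17 of 148) in the KO RIPs and 1.01% to 3.49% in the Inputs. These shares were not tested.

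The genes whose pattern over the 8 libraries was most like that of Vegfa were taken by the root mean square difference of centred log2 levels, among 4092 other genes that no library had under 10 reads of. They were Tor1aip1 (0.09), a nuclear envelope protein, Mthfd2 (0.14), a mitochondrial folate enzyme, Sh3glb1 (0.14), a membrane-bending protein, Lamp2 (0.16), a lysosomal membrane protein, and Tmed7 (0.17), a protein of the early secretory pathway. The median over all was 0.82. Of the members, Pdk1 (0.40) and Bnip3l (0.45) were nearest, at positions 334 and 510 of the 4092, and Bnip3 (1.28) and Hif1a (1.18) farthest. The closest members to each other were Bnip3l and Pdk1 (0.21), and the least alike were Hif1a and Ldha (1.503). Adm and Egln3 had too few reads for this measure. By Pearson correlation of the same levels with Vegfa, Pdk1 (0.84) and Hif1a (0.73) stood highest of the members and Ldha (-0.39) lowest.

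Fixed lists of the surrounding pathway, which hold the members too, give the setting. Over all genes the shares called after LPS were 13.7% higher and 16.5% lower in WT Input and 14.4% and 20.0% in KO Input, and the list counts are to be read beside these. Of 16 genes of HIF subunits and oxygen sensing, 13 were tested in WT Input and 14 in KO Input; 5 and 5 were called higher after LPS and 1 and 3 lower. Vhl, the ubiquitin ligase subunit that captures hydroxylated HIF, rose by 1.26 in WT and 2.07 in KO on the log2 scale. Epas1, the HIF-2 alpha subunit, fell, with log2 ratios of -3.20 and -2.94. In WT over KO RIP at both treatments, Tceb1, the elongin C that joins Vhl to its ligase, was called higher (1.22 untreated and 1.16 after LPS), and Egln2, a further prolyl hydroxylase, lower (-1.26 and -1.31). The untreated WT and KO RIPs had 57 and 6 reads of Tceb1 and 45 and 30 of Egln2. Arnt, the constant partner of HIF alpha subunits, was called higher in WT RIP than in WT Input at both treatments (1.61 and 1.302); it was named after its values were seen.

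Of 15 genes of VEGF and adrenomedullin ligands and receptors, 9 and 10 were tested in WT and KO Input, 2 and 4 were called higher after LPS and 2 and 1 lower, against those shares over all genes; 1 of the 4 in KO, Adm, had 0 untreated reads. Kdr, a receptor of Vegfa, rose by 2.36 and 3.09, from 7 to 83 and from 10 to 105 reads, beside the endothelial markers whose levels are given above. Nrp2, a co-receptor, rose by 1.13 and 0.90, while Nrp1, another co-receptor, fell, with -2.77 and -3.14. Nrp1 was also called higher in WT than in KO RIP, at 0.82 untreated and 1.28 after LPS.

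Of 29 genes of glycolysis and pyruvate use, 26 were tested in each genotype; 11 were called higher in WT Input and 16 in KO Input, and 3 and 2 lower, with medians of 0.52 and 1.08. Pfkfb3, which makes the activator of phosphofructokinase, rose by 3.72 and 4.01. Slc2a1, the glucose transporter GLUT1, rose by 2.66 and 2.98, and Pdk3, a further pyruvate dehydrogenase kinase, by 3.18 and 2.38 from 1 and 9 reads. RIP over Input was called lower for 14 of 25 in untreated and 17 of 26 in LPS-treated WT cells, and for 3 of 27 and 11 of 26 in KO cells, against 21.3%, 28.0%, 8.99% and 11.8% of all genes. In WT over KO RIP, of the 25 tested at each treatment, 3 and 3 were called higher and 6 and 10 lower. Over all genes, 6.81% were called higher and 9.34% lower in untreated cells, and 11.1% and 14.9% after LPS. Slc2a1 (1.36 and 0.69) and Slc16a1, a lactate transporter (2.34 and 0.91), went with Hk2, and Eno1 (-2.08 and -1.74), Pkm (-1.59 and -1.65) and Tpi1 (-1.27 and -1.65), all enzymes of the pathway, with Ldha. These enzymes have processed copies in the genome that may share reads, so their counts are uncertain. Read numbers were low in untreated cells, where Slc16a1 had 71 in WT and 3 in KO RIP, Slc2a1 164 and 17, and Eno1 15 and 18.

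Of 12 mitophagy genes, 11 were tested in each genotype; Bnip3 was the one called higher in WT Input, 2 were called higher in KO Input, counts near the shares over all genes, and 3 were called lower in each, among them Pink1 (-1.81 and -2.60), the kinase that marks damaged mitochondria, and Gabarapl1 (-0.94 and -0.71) and Map1lc3b (-0.80 and -0.68), coat proteins of the autophagosome. Of 35 other HIF target genes, 29 were tested in each genotype, 14 and 15 were called higher and 5 and 6 lower. Of those called higher, 4 in WT and 2 in KO had 0 untreated reads and so passed the read minimum through the LPS library alone. Nos2, the inducible nitric oxide synthase, went from 0 to 598 reads in WT and from 0 to 540 in KO Input. Cxcr4, a chemokine receptor, went from 131 to 1 and from 227 to 5 reads. P4ha1, a collagen prolyl hydroxylase, Ddit4, a brake on mTOR, and Ndrg1, a stress protein, were called higher in WT than in KO RIP at both treatments, with 1.67 and 0.69, 1.37 and 0.90, and 0.86 and 0.88. Mif, a cytokine, was called lower, with -1.98 and -0.96. The untreated WT and KO RIPs had 214 and 18 reads of P4ha1, 45 and 4 of Ddit4, 329 and 50 of Ndrg1, and 18 and 20 of Mif. Library totals add 0.84 untreated and 1.14 after LPS to each of these ratios. In WT over KO RIP 5 of the 25 tested in untreated cells were called higher and 1 lower, and 9 and 4 of 30 after LPS, against the 6.81% and 9.34% and the 11.1% and 14.9% of all genes.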

How the data were processed

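Per the labels and the study's methods, RIP and Input RNA was sequenced as 100 bp single-end reads, aligned to mm10 with Bowtie2 2.2.2 and freed of duplicate reads. The authors counted reads over annotated 3′-UTRs; both lanes are summed in the deposited counts. The deposited RPKM values are scaled by 3′-UTR length and library total, and were used only to recover library totals. The deposited score is the highest MACS 1.4.2 peak score in a 3′-UTR. All 4 tables also hold the authors' fold changes and p-values of their own comparisons, which were not used. In addition 8 repeated per-sample columns were not used.

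From the counts, the 495 rows without a symbol (0.902% to 1.04% of reads) were left out, and each library was scaled to its column sum. Depth was 467696 to 2492300 reads, and intervals and floors (3 counts) cover counting error only. Ratios used 1 added read. Pairs of libraries with at least 10 reads were tested with a two-sided Pearson chi-square test, and p-values were adjusted by Benjamini-Yekutieli over all 3′-UTRs with a symbol, as in the study's rule for bound RNAs. Differences of ratios were tested with a two-sided normal test with standard errors from counts, at least 10 reads in each of 4 libraries and Benjamini-Hochberg adjustment, with a threshold of 0.05. Python 3.11.15, scipy 1.17.1, R 4.3.3 and edgeR 4.0.16 were used, and the tests were tested on simulated data. The members, lists and tests were chosen with earlier results of these data known. Beyond the members, up to 3 genes per list and comparison were named, those with the largest ratio called in the same direction in both genotypes or both treatments. Alternatives were other scalings, tests, read minimums, adjustments and call rules, and the longest 3′-UTR of a gene. Sequence and overlaps came from RefSeq's GRCm38.p6 and GENCODE M21. One gene that this rule names is not reported here.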

Additional observations from a re-analysis of the deposited data

Results flagged for a closer look

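Between genotypes, the recovery of an RNA in RIP over its Input differed for several members by the normal test of the difference itself, on the log2 scale and with 1 library per group. In untreated cells it was higher in WT than in KO for Hif1a (1.002) and Hk2 (0.97) and lower for Ldha (-1.57). After LPS it was higher in WT for Vegfa (0.93), Hk2 (0.69) and Egln1 (0.39) and lower for Egln3 (-0.56) and Ldha (-1.13). Over all genes, 14.5% were called higher and 16.3% lower in untreated cells, and 16.6% and 21.8% after LPS. With the Benjamini-Yekutieli adjustment, 1 of the 8 members tested in untreated cells and 3 of the 9 after LPS were called. With library totals in place of 3′-UTR sums, the LPS values of Egln3 and Ldha were 0.64 and 0.07. Culture and genotype cannot be told apart, since each genotype is 1 culture.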

How the results depend on the processing

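Of 1618 values of the 10 genes under alternatives, 1489 kept a call or stayed uncalled, 54 lost the call, 67 gained one and 8 turned. All 8 turned with library totals: WT over KO RIP after LPS for Hif1a (0.94), Egln3 (0.93), Bnip3 (0.82) and Pdk1 (1.11), and the Input-corrected ratio for Pdk1 (0.69 untreated, 1.16 after LPS), Egln3 (0.64) and Ldha (0.0700) after LPS. The direction of values uncalled in both settings was not compared, and some of these changed sign. With library totals, Vegfa in KO RIP over Input went from 0.47 to -0.29 untreated and from 0.34 to -0.34 after LPS. The number of the 10 called moved as follows. With library totals, it went in RIP over Input from 5 to 8 in WT LPS, from 1 to 3 in KO untreated and from 2 to 6 in KO LPS cells, in WT over KO RIP from 3 to 6 untreated and from 2 to 8 after LPS, and Input-corrected from 3 to 7 and from 5 to 8. Over all genes, that scaling called 4850 of 8767 in RIP over Input of WT LPS cells. It called 2976 of 7708 in KO untreated and 3172 of 7861 in KO LPS cells. Input-corrected, it called 2230 of 4471 untreated and 3511 of 5478 after LPS, against 1380 and 2099. TMM gave 8 in RIP over Input of WT LPS cells. With an assumed coefficient of variation of 0.4, the number was 5 in place of 8 for LPS in KO Input and 0 in all 4 ratios of RIP over Input and both of WT over KO RIP. With 0.2 it was 3, 2, 0 and 1 in RIP over Input (WT untreated, WT LPS, KO untreated, KO LPS) and 1 in each WT over KO RIP. Vegfa was the 1 gene called in WT over KO Input after LPS with median-of-ratios scaling, library totals or Benjamini-Hochberg. Benjamini-Hochberg gave 2 in KO untreated RIP over Input. Benjamini-Yekutieli gave 1 and 3 for the Input-corrected ratios, and 50 reads in each library gave 1 in untreated cells. The LPS change of WT minus KO Input had 2 with TMM, 3 with median-of-ratios scaling, 2 with library totals and 2 with 50 reads, against 0. Over all genes, the 3 scalings called 163, 223 and 187 of 5468 there, against 139. The minimum of 50 reads called 187 of 2288.

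Over all genes, 42.2% of calls in untreated and 42.7% in LPS-treated WT over KO RIP were higher in WT; these were 69.2% and 72.2% with TMM and 98.2% in both with library totals, which raised the calls from 1302 to 2762 and from 2162 to 4492. With a coefficient of variation of 0.4 they were 97 and 408. Calls for LPS in Input fell from 2463 to 630 in WT and from 2843 to 717 in KO at 0.4, and the share higher went from 45.3% to 55.7% and from 41.9% to 53.3% with TMM. In RIP over Input, 0.4 left 715 of 3744 calls in WT untreated, 955 of 4657 in WT LPS, 164 of 1772 in KO untreated and 166 of 2158 in KO LPS cells. No paired analysis was possible because each group is 1 library, and for the same reason no library could be left out. Depth limits the untreated KO RIP, where Egln3 had 5 reads and Adm 0.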
